A study of Homo sapiens with 6 samples.

Results

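RNA of Huh-7 cells, an established human hepatocellular carcinoma line, was examined for 45 genes of fatty acid oxidation and the peroxisome, out of 20332 genes in the count table. The genes were chosen by symbol, as enzymes of mitochondrial and peroxisomal fatty acid oxidation, acyl-CoA synthetases, carnitine acyltransferases, ketone body enzymes and peroxins, and all 45 symbols were found. Of the 45, 43 had enough reads to be tested. Huh-7 cells with stable lentiviral overexpression of RAC3, a small GTPase, gave 3 samples, and the negative control cells, labelled wild type, gave the other 3. Whether the lines were clones, and which vector the control cells carried, is not given in the sources used here. The comparison asks which of these genes differ in RNA level between cells with and without added RAC3. In bulk RNA, fewer cells of a type and less RNA per cell cannot be told apart.

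Fatty acids are burned in steps. An acyl-CoA synthetase joins the acid to coenzyme A, the carnitine acyltransferases carry it across the mitochondrial membranes, and a repeating round of dehydrogenation, hydration, a further dehydrogenation and thiolysis shortens the chain and releases acetyl-CoA. Electrons of the acyl-CoA dehydrogenases leave through the electron transfer flavoprotein and its oxidoreductase to ubiquinone. Very long and branched chains are first shortened in peroxisomes, where the first oxidation makes hydrogen peroxide that catalase removes. Peroxins build that organelle: some insert membrane proteins, others import matrix enzymes through a receptor that is then ubiquitinated and pulled back out. In liver the nuclear receptor PPARα and its partner RXRA switch on many of these genes, and the acetyl-CoA can leave as ketone bodies.

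Total counts on genes ranged from 13855762 to 18199888 per sample, and a count of 0 allows up to 3 counts, or 0.167 to 0.215 CPM (a gene's counts relative to its library's total), which covers counting error only. Values below are CPM scaled by the TMM method (normalized CPM) unless FPKM, the authors' measure that also divides by transcript length, is named. RAC3 itself had 35.6, 31.4 and 32.8 normalized CPM without and 232.6, 239.6 and 225.4 with overexpression, a log2 fold change of 2.81 (SE 0.0574, adjusted p = 9.6e-18, edgeR's quasi-likelihood test). The genotype field of the second and the third RAC3 sample reads RAC4 and RAC5, while the titles and the design text give RAC3. Samples within a group differed from each other by more than counting noise, and p-values measure the spread between these samples only. Of 15 hepatocyte markers none was at 0, and their summed level was 6879 to 6936 normalized CPM in the controls and 6460 to 7069 in the RAC3 samples. By the test 5 of these markers were higher and 6 lower with RAC3 (73.3% called, against 28.5% of all genes tested). Of 10 fibroblast and stellate markers THY1 was at 0, and the sum was 240.7 to 257.2 in the controls and 280.7 to 291.7 in the RAC3 samples. Of 7 tested, 2 were higher and 1 lower (42.9% called). Of 7 endothelial markers TEK was at 0 and the sum was 2.66 to 3.15 against 2.76 to 3.76, with 1 tested and not called. Of 12 immune markers MS4A1, CD163 and NKG7 were at 0, and the sum was 44.8 to 51.8 against 41.3 to 43.3. Of only 3 tested, 1 was higher and 1 lower (66.7% called). The part of these markers in the results was not tested.

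The mean level of the genes ran from 0.132 FPKM (ACSL5) to 143.0 FPKM. ETFB, the beta subunit of the electron transfer flavoprotein, stood first, with 128.7 to 159.8 FPKM over the 6 samples, above the range of every other member. ACAA1, the peroxisomal thiolase, followed with 120.5 FPKM, and its range overlapped that of ETFA, the alpha subunit, with 113.5 FPKM. ECHS1, the short-chain enoyl-CoA hydratase, had 103.2 FPKM and overlapped neither neighbour. ACADVL (68.2 to 82.1 FPKM), SCP2 (65.5 to 83.3) and HADHA (69.8 to 76.4) overlapped one another, and ECI1 came next with 62.9 FPKM. From ECI1 down to CPT1A each member overlapped the one ranked next, so neighbours in that stretch cannot be ordered, while members farther apart can. ECI1 (53.5 to 67.7 FPKM) lay above all values of HADHB (45.8 to 51.3), and HADHB above those of HADH (22.5 to 29.3). CPT1A, the outer-membrane carnitine palmitoyltransferase that sets the rate of long-chain entry, had 15.2 FPKM, rank 25, and CPT2, its inner-membrane partner, 17.3 FPKM. At the low end stood CROT with 2.47, PEX11A with 2.24, ACOX2 with 1.06 and ACADL with 0.267 FPKM. ACADL, the long-chain dehydrogenase, had a mean of 10.7 counts per sample. BDH1, which makes 3-hydroxybutyrate, and ACSL5, an acyl-CoA synthetase, were too low to test. BDH1 had 2, 0 and 2 counts in the controls and 7, 3 and 4 in the RAC3 samples, and ACSL5 had 3, 2 and 1 against 4, 19 and 5, where the 19 stands alone.

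**Figure D1:**
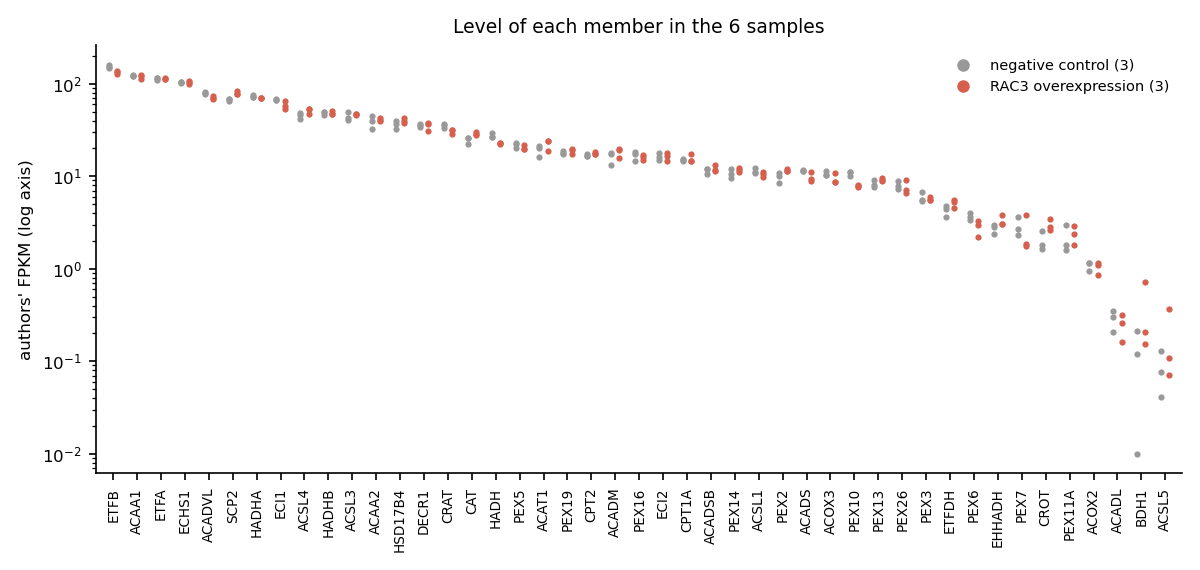
The authors' FPKM of the 45 genes in each of the 6 samples, on a log axis and ordered by the mean over all samples, with grey points for the 3 negative controls and red points for the 3 RAC3 samples. A value of 0 (1 sample of BDH1) is drawn at 0.01. ETFB, ACAA1, ETFA and ECHS1 lie at 99.4 FPKM or above in every sample, and the points of both groups overlap for most genes.

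Between the groups, 13 of the 43 tested genes had an adjusted p below 0.05 (30.2%), against 28.5% of all 12941 genes tested. CROT and PEX2 were higher with RAC3, 2 of 43 (4.65%) against 13.3% of all genes. Another 11 were lower, 25.6% against 15.3% of all genes: PEX10, PEX6, HADH, ECI1, ACADS, CRAT, ACOX3, ETFB, ACSL1, PEX5 and ACADVL. None of the 43 passed a fold change of 1.5 with an unadjusted p below 0.05, which 4.68% of all genes did. The groups did not overlap for 18 genes (41.9%), against 42.5% of all genes. Of these, 4 were higher with RAC3 (CROT, PEX2, SCP2 and CAT), 9.3% against 20.9%, and 14 lower, 32.6% against 21.6%. The lower ones were the 11 called genes with ECHS1, HADHA and ACAA1. This holds for normalized CPM. In the authors' FPKM the groups of PEX5, ACOX3, ACSL1, ECHS1 and ACAA1 overlapped. The median log2 fold change of the 43 was -0.052 and that of all genes 0.0036. With scaling by library size alone, which moved the median of all genes to 0.06, 5 of the 43 were higher and 6 lower, and over all genes 2613 were higher and 1381 lower, against 1717 and 1974 with TMM. On the log2 scale relative to the mean of the controls, the median member was at -0.025, -0.0019 and 0.023 in the controls and at -0.11, -0.011 and -0.013 in the RAC3 samples, so the RAC3 sample 1 stood lowest.

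**Figure D2:**
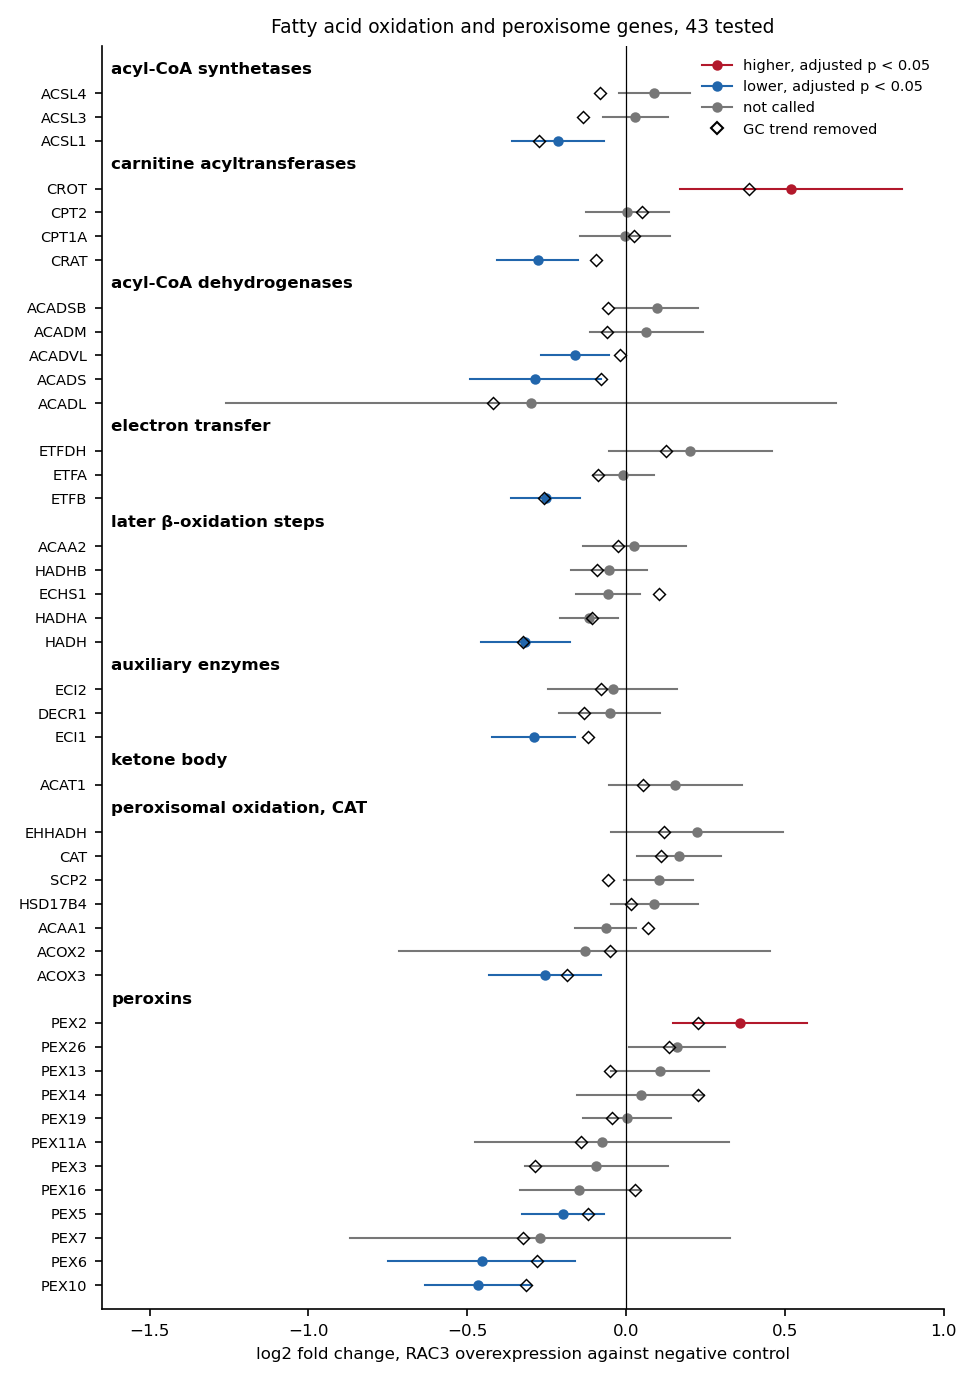
Log2 fold change of the 43 tested genes between RAC3 overexpression (3 samples) and negative control (3 samples), grouped by role, with points for the estimate, bars for the 95% interval and open diamonds for the estimate with the trend in GC content removed. The called genes span -0.47 (PEX10) to 0.52 (CROT), and most intervals of the others include 0.

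The change in PEX10, HADH and ETFB passed the threshold under all 15 alternative settings, and CROT had the most positive change, so the RefSeq promoters of these 4 are shown (GRCh38.p14, 250 bases before to 50 after the annotated start, 5′ to 3′ on the gene's strand). Capitals mark 3 searched motifs, on either strand: the GC box GGGCGG bound by SP-family factors, the E-box CACGTG, and AGGTCA, the core that nuclear receptors such as PPARα and RXRA recognise in pairs. The ETS core CCGGAAG was searched too and is in none of the 4.
PEX10, chr1:2413778-2414077, minus strand: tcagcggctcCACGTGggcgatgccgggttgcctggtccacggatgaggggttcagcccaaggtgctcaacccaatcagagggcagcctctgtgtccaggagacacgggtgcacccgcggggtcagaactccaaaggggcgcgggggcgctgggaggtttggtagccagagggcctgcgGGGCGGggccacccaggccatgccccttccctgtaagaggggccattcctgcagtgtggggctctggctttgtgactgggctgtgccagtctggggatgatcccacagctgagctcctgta
HADH, chr4:107989639-107989938, plus strand: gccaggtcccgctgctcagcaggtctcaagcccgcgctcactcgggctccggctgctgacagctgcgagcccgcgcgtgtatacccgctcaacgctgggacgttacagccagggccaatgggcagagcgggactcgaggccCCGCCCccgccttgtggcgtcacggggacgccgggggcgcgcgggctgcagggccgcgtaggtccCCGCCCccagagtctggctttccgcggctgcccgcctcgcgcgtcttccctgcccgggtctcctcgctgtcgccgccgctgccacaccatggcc
ETFB, chr19:51354793-51355092, minus strand: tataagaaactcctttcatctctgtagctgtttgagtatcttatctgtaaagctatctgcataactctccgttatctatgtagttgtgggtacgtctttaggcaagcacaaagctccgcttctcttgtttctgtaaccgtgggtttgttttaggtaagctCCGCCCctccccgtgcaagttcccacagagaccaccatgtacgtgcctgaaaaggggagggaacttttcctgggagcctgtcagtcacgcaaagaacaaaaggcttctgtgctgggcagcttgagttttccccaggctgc
CROT, chr7:87345414-87345713, plus strand: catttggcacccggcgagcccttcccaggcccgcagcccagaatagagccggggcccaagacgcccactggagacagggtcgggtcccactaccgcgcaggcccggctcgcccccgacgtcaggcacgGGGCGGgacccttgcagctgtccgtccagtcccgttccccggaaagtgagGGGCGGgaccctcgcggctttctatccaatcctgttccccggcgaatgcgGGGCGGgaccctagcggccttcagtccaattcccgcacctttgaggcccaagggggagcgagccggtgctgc
The PEX10 promoter holds 1 GC box and the only E-box among the members with an entry, at a GC content of 66.3%. HADH holds 2 GC boxes with 74.3% GC and 37 CpG sites, and CROT holds 3 GC boxes with 70.0% GC and 28 CpG sites. ETFB differs from these, with 1 GC box, 48.3% GC and 8 CpG sites, and its RefSeq start lies inside the longer gene of the annotation used here. Of the 37 members with an entry, 27 (73.0%) hold a GC box, against 45.0% of 35116 promoters of the same length. Those promoters are not limited to genes tested in these cells, so the shares do not set the members apart from other expressed genes. AGGTCA is in 1 (ACSL5, 2.70%) against 13.8%, CACGTG in 1 (2.70%) against 7.26%, and CCGGAAG in 8 (21.6%) against 10.3%. A match is a run of letters and not a bound site, and its absence says only that these letters are not in this window. ACAA1, ACOX2, CRAT, DECR1, EHHADH, ETFDH, PEX14 and PEX2 have no entry.

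Of the 12 peroxins, 3 were lower and 1 higher, 33.3% called against 28.5% of all genes tested, so the share called was near that of all genes. PEX10 and PEX2 belong to the RING complex that ubiquitinates the import receptor at the peroxisome membrane, and they moved in opposite directions. PEX10 (ENSG00000157911, chr1:2403964-2413797) had 30.1, 30.6 and 28.7 normalized CPM in the controls and 20.5, 21.9 and 22.3 in the RAC3 samples, so the groups were far apart. It fell by 0.47 on the log2 scale (SE 0.0797, adjusted p = 2.4e-04, edgeR's quasi-likelihood test). Its exons share 39.1% of their bases with RER1, a Golgi retention receptor on the opposite strand, and whether the counting used strand is not given in the sources used here. RER1 had 134.0 ± 6.43 in the controls and 130.7 ± 5.53 with RAC3 (SD, n = 3), a log2 fold change of -0.036 (adjusted p = 0.649, edgeR's quasi-likelihood test). PEX2 (chr8:76980258-77001044) had 16.6, 14.2 and 15.2 in the controls and 18.0, 20.7 and 20.2 in the RAC3 samples. The groups did not overlap, and it rose by 0.36 (SE 0.1004, adjusted p = 0.0115, edgeR's quasi-likelihood test), a call lost without the negative control 2 (0.30) and with the trend in GC content removed (0.23).

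PEX6, an ATPase that extracts the ubiquitinated receptor, had 11.96, 14.2 and 12.7 normalized CPM in the controls and 7.43, 11.1 and 9.93 in the RAC3 samples (chr6:42963870-42979220). The RAC3 sample 1 was the lowest. The log2 fold change was -0.45 (SE 0.141, adjusted p = 0.0211, edgeR's quasi-likelihood test), and the call was lost without the negative control 2 (-0.39) or without the RAC3 sample 1 (-0.30). PEX26, the membrane anchor of that ATPase, did not pass the test, with a log2 fold change of 0.16, and was called without the RAC3 sample 1 (0.23) and with scaling by library size. PEX5, the import receptor for most matrix enzymes (chr12:7188685-7218574), had 66.2, 59.8 and 60.1 in the controls and 52.6, 55.2 and 54.3 in the RAC3 samples. It was lower in all 3 RAC3 samples than in any control, by 0.20 on the log2 scale (SE 0.0618, adjusted p = 0.021, edgeR's quasi-likelihood test). This call was lost without the negative control 1 (-0.16), without the RAC3 sample 1 (-0.18) and without the RAC3 sample 3 (-0.20). The docking proteins PEX13 and PEX14, the membrane-protein factors PEX3, PEX16 and PEX19, the second import receptor PEX7 and the division factor PEX11A were not called, with log2 fold changes from -0.27 (PEX7) to 0.11 (PEX13).

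Among the 7 genes of peroxisomal oxidation, catalase included, only ACOX3 passed the test (14.3%, against 28.5% of all genes). ACOX3, an oxidase for branched chains (chr4:8366282-8440723), had 26.8, 24.6 and 26.4 normalized CPM in the controls and 20.9, 21.2 and 23.3 in the RAC3 samples. The groups did not overlap, and it fell by 0.25 on the log2 scale (SE 0.0841, adjusted p = 0.0291, edgeR's quasi-likelihood test), a call kept in 8 of the 15 alternatives. It was lost without the negative controls 1 (-0.24) and 3 (-0.25) and without the RAC3 samples 1 (-0.22) and 2 (-0.24). EHHADH, the bifunctional hydratase and dehydrogenase, had 9.31, 11.4 and 10.9 in the controls and 11.3, 14.2 and 11.4 in the RAC3 samples, with overlap and a log2 fold change of 0.22 (95% interval -0.046 to 0.49). ACAA1 had 195.2, 192.9 and 193.4 against 176.5, 187.6 and 192.1, so all RAC3 samples were lower but the highest of them came close to the lowest control. Its log2 fold change was -0.065 (adjusted p = 0.313, edgeR's quasi-likelihood test). CAT, or catalase, had 52.7, 59.8 and 59.6 against 64.1, 62.6 and 66.7, all higher with RAC3, at a log2 fold change of 0.17 (95% interval 0.033 to 0.30, adjusted p = 0.056, edgeR's quasi-likelihood test), and it was called with scaling by library size. HSD17B4, SCP2 and ACOX2 were not called, with 0.090, 0.10 and -0.13, and SCP2 was called with scaling by library size.

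At the entry of the pathway 1 of 3 tested acyl-CoA synthetases was lower (33.3% called). Of the 4 carnitine acyltransferases 1 was higher and 1 lower (50% called), against 28.5% of all genes tested. With so few genes these shares say little about either group. ACSL1, the main long-chain synthetase of liver (chr4:184755595-184826818), had 40.5, 42.0 and 43.8 normalized CPM in the controls and 38.2, 34.6 and 36.0 in the RAC3 samples. It fell by 0.22 on the log2 scale with no overlap (SE 0.0692, adjusted p = 0.025, edgeR's quasi-likelihood test). The call was lost without the negative controls 2 (-0.22) and 3 (-0.19) and without the RAC3 samples 2 (-0.18) and 3 (-0.21). ACSL3 and ACSL4 were not called, with 0.030 and 0.089. CPT1A had 61.0, 59.3 and 56.4 in the controls and 54.7, 56.9 and 64.97 in the RAC3 samples, which overlap. Its log2 fold change was -0.0030 with a 95% interval of -0.14 to 0.14, and that of CPT2 was 0.0040 with an interval of -0.13 to 0.14. The other pair of the family differed. CRAT, carnitine acetyltransferase, which handles acetyl groups (chr9:129094810-129111189), had 97.1, 92.0 and 87.6 in the controls and 78.5, 70.4 and 79.1 in the RAC3 samples, lower by 0.28 (SE 0.0604, adjusted p = 0.0019, edgeR's quasi-likelihood test). CROT, the peroxisomal carnitine octanoyltransferase that exports shortened chains (chr7:87345681-87399795), had 4.66, 5.19 and 6.58 against 7.32, 7.71 and 8.80. It rose by 0.52 on the log2 scale (SE 0.167, adjusted p = 0.025, edgeR's quasi-likelihood test) on a mean of 107.0 counts per sample. The CROT call was lost without the negative control 1 (0.41), without the negative control 2 (0.47) and without the RAC3 sample 3 (0.44).

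The 16 mitochondrial oxidation enzymes and electron carriers (5 dehydrogenases, 3 electron transfer genes, 5 of the hydration, dehydrogenation and thiolysis steps and 3 auxiliary enzymes for unsaturated chains) had 5 lower and 0 higher, 31.2% against 15.3% lower and 13.3% higher among all genes. Of their estimates 12 of 16 (75%) were below 0, against 49.5% of all genes tested. Among the acyl-CoA dehydrogenases, ACADS, for short chains (chr12:120725735-120740008), had 22.3, 21.4 and 21.6 normalized CPM in the controls and 16.0, 20.3 and 17.2 in the RAC3 samples. The controls were close together and the RAC3 samples spread, all below them, at a log2 fold change of -0.29 (SE 0.0984, adjusted p = 0.0356, edgeR's quasi-likelihood test) kept in 7 of the 15 alternatives. It was lost when any sample but the RAC3 sample 2 was left out, at -0.21 to -0.30. ACADVL, the membrane-bound dehydrogenase for very long chains, went from 136.1 ± 7.36 to 121.6 ± 2.17 (SD, n = 3), a fall of 0.16 on the log2 scale (adjusted p = 0.0235, edgeR's quasi-likelihood test). The call was lost without the negative control 1 (-0.12) and without the RAC3 samples 2 (-0.15) and 3 (-0.17). ACADM, ACADSB and ACADL were not called, with 0.064, 0.096 and -0.30, the last with an interval of -1.26 to 0.66.

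ETFB and ETFA encode the subunits of 1 heterodimer. ETFB (chr19:51345169-51366418) had 143.4, 129.7 and 134.2 normalized CPM in the controls and 115.2, 115.9 and 110.4 in the RAC3 samples, with a clear gap between the groups. It fell by 0.25 on the log2 scale (SE 0.0516, adjusted p = 0.0012, edgeR's quasi-likelihood test). ETFA went from 134.5 ± 1.11 to 133.7 ± 1.11 (SD, n = 3), a log2 fold change of -0.0083 with an interval of -0.10 to 0.088. ETFDH, the oxidoreductase that takes the electrons on, had 0.20 and was not called.

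HADH, the soluble dehydrogenase for medium and short hydroxyacyl chains (chr4:107989714-108035175), had 45.9, 47.1 and 51.1 normalized CPM in the controls and 38.3, 38.1 and 39.4 in the RAC3 samples. The groups were well apart, and it fell by 0.32 on the log2 scale (SE 0.0668, adjusted p = 0.0015, edgeR's quasi-likelihood test). HADHA, the alpha subunit of the mitochondrial trifunctional protein for long chains, had 215.8, 212.7 and 226.5 against 202.2, 200.9 and 201.2. It did not overlap between the groups but missed the threshold, at -0.12 (95% interval -0.21 to -0.026, adjusted p = 0.0507, edgeR's quasi-likelihood test), and was called by limma-voom, with a filter of 10 counts in every sample and with the trend in GC content removed. HADHB, its beta subunit, ECHS1 and ACAA2, the mitochondrial thiolase, were not called, with -0.055, -0.057 and 0.026. Of the auxiliary enzymes ECI1, which shifts double bonds (chr16:2239395-2252300), had 89.6, 88.1 and 89.4 in the controls and 66.1, 79.1 and 73.3 in the RAC3 samples. It was lower in all of them, by 0.29 (SE 0.0624, adjusted p = 0.0018, edgeR's quasi-likelihood test). ECI2 and DECR1 had -0.042 and -0.052 and were not called, and neither was ACAT1, the mitochondrial acetoacetyl-CoA thiolase of ketone body metabolism, at 0.15.

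For the 30 tested members that were not called, the log2 fold changes lay between -0.30 and 0.22. Of these, 26 averaged 100 counts or more in a sample, and their 95% intervals reached from -0.33 to 0.49 at the outermost. In simulated counts with the depths of these samples, 24 of 50 genes changed by 1.25-fold were called (48%). Of those changed by 1.5-fold, 45 of 50 were called (90%). That simulation changed few genes and gave every gene the same variability, while 28.5% of all genes were called in these data. A call there thus needed a smaller unadjusted p, so these shares do not measure detection here. All 13 called changes were smaller than 1.5-fold.

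**Figure D3:**
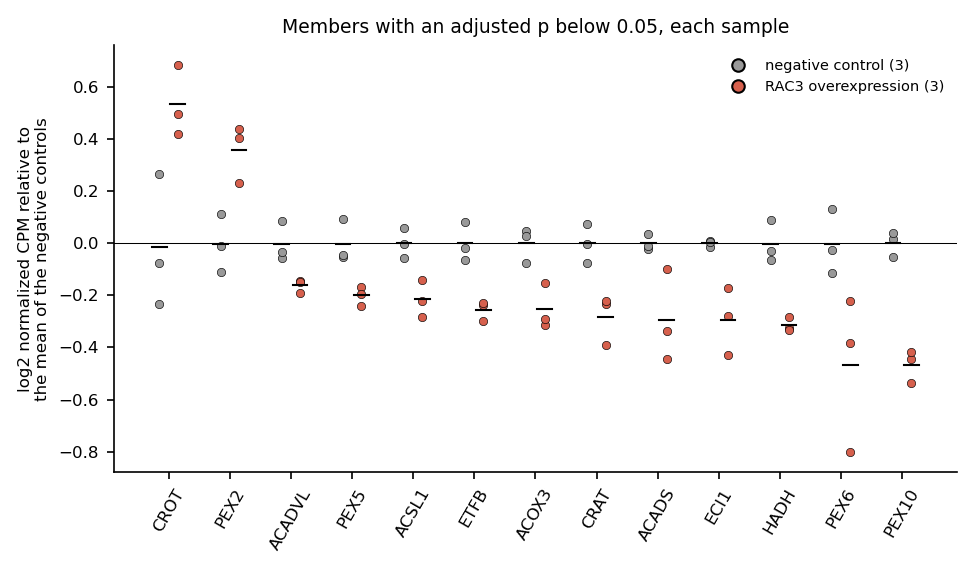
Normalized CPM of the 13 called genes in each sample, as log2 relative to the average of the 3 control samples (grey points), with the 3 RAC3 samples in red. The RAC3 samples lie apart from the controls for every gene shown, above them for CROT and PEX2 and below them for the other 11.

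Gene pairs, subunits or factors of 1 complex or process (ETFB and ETFA, HADHA and HADHB, PEX10 and PEX2, PEX6 and PEX26, PEX5 and PEX14) and enzymes of 1 family (ECI1 and ECI2, CRAT and CROT, ACSL1 and ACSL3), were also compared within each library as the log2 ratio of their normalized CPM, which does not depend on the scaling between libraries. The 8 pairs were chosen after the values were seen, so the ratios are descriptive. With 3 samples against 3 the exact permutation test, two-sided, cannot go below p = 0.10. ETFB against ETFA was 0.11, -0.059 and -0.011 in the controls and -0.22, -0.21 and -0.26 in the RAC3 samples, a difference of -0.25 with no overlap. PEX10 against PEX2 was 0.86, 1.11 and 0.92 in the controls and 0.19, 0.078 and 0.14 in the RAC3 samples, a difference of -0.83. CRAT against CROT differed by -0.83, PEX6 against PEX26 by -0.63, ECI1 against ECI2 by -0.25, ACSL1 against ACSL3 by -0.25 and PEX5 against PEX14 by -0.24, each without overlap. The 7 separated ratios had an exact permutation p of 0.10 each (0.114 after Benjamini-Hochberg adjustment over the 8). Each holds a member called lower from the same samples, so its separation is not independent of that call. No share was computed over other gene pairs. HADHA against HADHB, the subunits of the trifunctional protein, overlapped, with a difference of -0.061 (exact permutation p = 0.5). The ratios carry any trend with the GC content of the partners and were not recomputed with it removed. With that trend removed, ETFB and ETFA had log2 fold changes of -0.26 and -0.088, and ECI1 and ECI2 had -0.12 and -0.079. CRAT and CROT had -0.094 and 0.39, PEX10 and PEX2 -0.32 and 0.23, and PEX6 and PEX26 -0.28 and 0.14. PEX5 and PEX14 had -0.12 and 0.23, and ACSL1 and ACSL3 -0.27 and -0.13.

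The direction of the members moved with the GC content of their transcripts. CROT and PEX2 have a GC content of 40.2% and 40.4%, the 11 lower members have a median of 58.6% (45.1% to 64.6%) and the 30 members not called one of 44.9%. All genes tested show the same order, with medians of 41.6% for genes called higher, 58.2% for genes called lower and 48.4% for the rest. Across the 43 members, which share the same 6 libraries, the log2 fold change and GC content had a Pearson correlation of -0.58 and a Spearman correlation of -0.60, and across 12863 genes these were -0.43 and -0.52. The median log2 fold change of all genes went from 0.16 in transcripts with 35% to 40% GC to -0.23 in those from 65%. With each library's trend in GC content removed, ETFB at -0.26, HADH at -0.33, PEX10 at -0.32 and ACSL1 at -0.27 stayed called. The other 9 calls were lost: CROT became 0.39, PEX2 0.23, PEX6 -0.28, PEX5 -0.12, ECI1 -0.12, CRAT -0.094, ACADS -0.080, ACOX3 -0.18 and ACADVL -0.018. HADHA at -0.11 and ACSL3 at -0.13 were called in that setting, which gave 0 members higher and 6 lower, with 20.7% of all genes called. The GC content of ETFB, HADH and ACSL1 is 48.7%, 48.5% and 45.1%, and that of PEX10 is 59.2%. Beyond this removal, the part of GC content in the results was not tested.

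**Figure D4:**
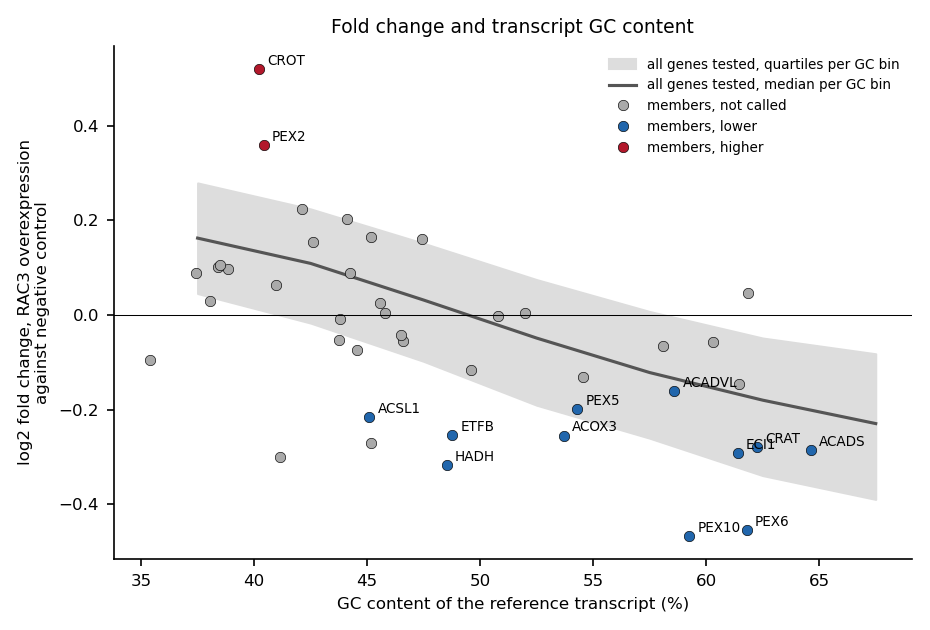
Log2 fold change between RAC3 overexpression and negative control against the GC content of the reference transcript in percent, for the 43 tested members (points coloured by call) over the median and quartiles of all genes tested in bins of GC content (grey line and band). The line runs from 0.16 at the low end to -0.23 at the high end, CROT and PEX2 lie on the left, and most lower members on the right.

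Regulators and neighbours of the pathway were read against the 28.5% of all genes tested that were called (13.3% higher and 15.3% lower). Of 16 tested PPAR receptors, partners and coactivators, 2 were higher and 2 lower (25%), a share no larger than that of all genes. SIRT1, a deacetylase that acts on PGC-1α, rose from 25.4 ± 1.03 to 34.7 ± 2.79 normalized CPM (SD, n = 3), a log2 fold change of 0.46 (adjusted p = 2.9e-04, edgeR's quasi-likelihood test), and TFAM, the mitochondrial DNA transcription factor, rose by 0.41. RXRA, the partner receptor of PPARα, had 103.0, 91.3 and 86.8 in the controls and 70.1, 73.5 and 69.9 in the RAC3 samples and fell by 0.40 (adjusted p = 1.3e-04, edgeR's quasi-likelihood test). ESRRA, a receptor that also drives oxidation genes, fell by 0.30. PPARA itself was not called, with 15.6 ± 1.02 and 13.9 ± 1.72 (SD, n = 3).

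Of 17 tested genes known as PPARα targets outside the members, 5 were higher and 4 lower (52.9% called, against 28.5% of all genes). FABP1, the liver fatty acid binding protein, rose by 0.73 and CREB3L3, a liver transcription factor of the fasting response, by 0.46. ANGPTL4, a secreted lipoprotein lipase inhibitor, had 15.8, 8.26 and 3.90 against 3.38, 5.16 and 6.03, so the groups overlapped and the negative control 1 was far above the rest, at a log2 fold change of -0.93 (adjusted p = 0.0398, edgeR's quasi-likelihood test). Without that control it was -0.32 and not called, and the call was also lost without the negative control 2 (-1.005) and without the RAC3 samples 1 (-0.71) and 2 (-0.98). HILPDA, a lipid droplet protein that inhibits lipolysis, had 30.9, 18.0 and 14.9 against 11.99, 11.5 and 12.5 and fell by 0.81, again with the negative control 1 highest, and without that control the log2 fold change was -0.46. The call was kept there, but was lost by DESeq2's test (-0.83, adjusted p = 0.0503). FADS2, a desaturase of fatty acid synthesis, fell by 0.62.

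In the other lists the share called ranged from 17.6% to 70.0%, against 28.5% of all genes tested. Of 24 further fatty acid oxidation enzymes, 2 were higher (AMACR, a racemase for branched chains, 0.29, and SLC25A20, the carnitine-acylcarnitine carrier, 0.27) and 5 lower (29.2% called, near the share of all genes), led by ECHDC2 at -0.62, ECHDC3 at -0.31 and ACSF2 at -0.31. Of 10 ketone body genes (70.0% called) 4 were higher, among them BDH2 at 0.41 and the transporter SLC16A1 at 0.20, and 3 lower, among them OXCT2 at -0.77 and AACS at -0.27. Of 5 tested genes of carnitine synthesis and uptake (40.0% called), SLC25A20 was higher and SLC25A29 lower at -0.50. Of 9 other peroxins and peroxisome division genes (22.2% called), DNM1L, the fission GTPase, was higher at 0.30 and FIS1, a membrane adaptor for it, lower at -0.22. Of 36 other peroxisomal proteins (25% called) 4 were higher and 5 lower: among the higher ones AMACR, ABCD3 at 0.27 and SLC25A17 at 0.24, and among the lower ones MVK, of the mevalonate pathway, at -0.37. Of 17 acyl-CoA thioesterases and binding proteins (17.6% called), FABP1 and FABP5 (0.34) were higher and ACBD6 (-0.25) lower. Of 15 lipolysis and lipid droplet genes (33.3% called), MGLL, monoacylglycerol lipase, at 0.47 and LIPA, the lysosomal acid lipase, at 0.22 were higher, and HILPDA, PLIN2 at -0.28 and DGAT1 at -0.21 lower. PLIN2 had 244.6 normalized CPM in the negative control 1 and 154.0 to 179.3 in the others, against 155.7 to 160.9 with RAC3, so the groups overlapped, and without that control it was -0.078 and not called (-0.43 without the negative control 3). Leaving out the RAC3 sample 1 ended the calls of AMACR (0.21), AACS (-0.19), ECHDC3 (-0.25), OXCT2 (-0.65), FIS1 (-0.17), SLC25A17 (0.22), SLC25A29 (-0.51), PLIN2 (-0.28) and DGAT1 (-0.22). Leaving out the RAC3 sample 2 ended those of SLC25A20 (0.23), BDH2 (0.38), OXCT2 (-0.78), SLC25A29 (-0.53), PLIN2 (-0.27) and DGAT1 (-0.22). Without the RAC3 sample 3 those of SLC25A20 (0.27), BDH2 (0.42), FIS1 (-0.22), SLC25A17 (0.24), SLC25A29 (-0.48), ACBD6 (-0.19), LIPA (0.21), PLIN2 (-0.29) and DGAT1 (-0.18) were lost. Without the negative control 1 the calls lost were those of SLC25A20 (0.25), BDH2 (0.33), OXCT2 (-0.76), ECHDC3 (-0.24), FIS1 (-0.15), ACBD6 (-0.24) and DGAT1 (-0.15), without the negative control 2 those of OXCT2 (-0.62), SLC25A29 (-0.30), SLC25A17 (0.21), PLIN2 (-0.33) and DGAT1 (-0.20), and without the negative control 3 those of SLC25A20 (0.22) and ACBD6 (-0.24). Many of these values barely moved, and each left-out sample also lowered the share of all genes called, to between 20.2% and 25.4%.

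With the trend in GC content removed, FABP1 at 0.69, CREB3L3 at 0.61, MGLL at 0.61, HILPDA at -0.78, FADS2 at -0.45, RXRA at -0.20, SIRT1 at 0.33 and TFAM at 0.25 were still called, as were ECHDC2 at -0.50, FABP5 at 0.33, SLC25A20 at 0.30, PLIN2 at -0.28, MVK at -0.22, AMACR at 0.21 and DNM1L at 0.17. ESRRA at -0.11, ABCD3 at 0.11, OXCT2 at -0.58, BDH2 at 0.32 and ANGPTL4 at -0.73 were not. Neither were SLC25A29 at -0.37, ACSF2 at -0.20, ACBD6 at -0.19, AACS at -0.17, ECHDC3 at -0.16, FIS1 at -0.077, DGAT1 at -0.014, LIPA at 0.12, SLC16A1 at 0.11 and SLC25A17 at 0.094.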

How the data were processed

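Poly(A)-selected RNA was read on an Illumina NovaSeq. The authors deposited raw counts per gene and sample and FPKM values per sample with group means, the latter used for 1 check. The submitters' processing notes name Bowtie2 2.2.8, HISAT2, StringTie 1.3.1 and DESeq2, and the genome build and the counting strand are not given in the sources used here. Positions, GC content and lengths came from GENCODE release 29 (GRCh38).

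The analysis used edgeR 4.0.16 under R 4.3.3: genes kept by filterByExpr (12941), TMM scaling, quasi-likelihood F test, two-sided, Benjamini-Hochberg adjustment over all genes tested, threshold 0.05, no covariate. SE is the size of the log2 fold change divided by the square root of F. The steps were tested on simulated data. Alternatives were 3 scalings, DESeq2 1.42.0, limma-voom 3.58.1, 2 filters, the replicate number as a block, removal of each library's GC trend (lowess, span 0.3) and leaving out each sample.

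The members and lists were chosen with earlier results of these data known. Values per sample were given for called members averaging 10 counts or more, at most 10 per direction, and for CPT1A, HADHA, EHHADH, ACAA1, CAT and PEX5. From each list at most 3 called genes per direction were named, and some genes of the lists are not reported here. Same-numbered samples did not deviate together (r = -0.136, -0.0656 and -0.0178 over 10169 genes), and the numbers are not known to pair them.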

Additional observations from a re-analysis of the deposited data

How the results depend on the processing

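Among the 15 alternatives, ETFB, HADH and PEX10 kept an adjusted p below 0.05 in all 15, CRAT and ECI1 in 14, PEX2 in 13, PEX6 in 12, CROT in 11, ACADVL and PEX5 in 10, ACSL1 in 9, ACOX3 in 8 and ACADS in 7. With the replicate number as a block all 13 calls remained, 2 higher and 11 lower, with 25.2% of all genes called, and no call changed. The numbers are not known to pair the samples.

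Scaling by library size gave 5 members higher and 6 lower and a median log2 fold change of 0.0046. It lost ACADS, ACADVL, ACOX3, ACSL1 and PEX5 and added CAT, PEX26 and SCP2. Removing the GC trend gave 0 higher and 6 lower and 21 called genes of the pathway lists, against 40. The share of all genes called fell too, from 28.5% to 20.7%. Testing genes with any count put 1 member past 1.5-fold. The authors' mean FPKM values gave a median of -0.00018. DESeq2's test lost ACADS, ACOX3 and ACSL1 and, of the named list genes, ANGPTL4, HILPDA, SLC25A29, ACBD6, PLIN2 and DGAT1. It called 24.0% of all genes.

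Leaving out each sample in turn gave 0 to 3 members higher, 7 to 8 lower, 0 to 2 past 1.5-fold, 18 to 27 without overlap (41.9% to 62.8% of members, against 49.2% to 52.9% of all genes, which separate more often with fewer samples), a median of -0.074 to -0.013, 28 to 40 called list genes and a RAC3 log2 fold change of 2.76 to 2.85. Members called numbered 8 without the negative control 1, 8 without the negative control 2, 10 without the negative control 3, 10 without the RAC3 sample 1, 10 without the RAC3 sample 2 and 8 without the RAC3 sample 3, while 21.8%, 21.5%, 24.8%, 20.2%, 25.4% and 20.9% of all genes were called in the same order, against 28.5% with all samples.

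Among the members and the named list genes, the sign reversed 36 times, in genes that were not called in the report. It did so with scaling by library size for CPT1A (0.053), ETFA (0.048), HADHB (0.0015), ECI2 (0.014) and DECR1 (0.0046), with any count for CPT2 (-0.00036) and PEX19 (-0.00053), and with the GC trend removed for ACSL3 (-0.13, the only reversed value that was called, adjusted p = 0.0274 by edgeR's quasi-likelihood test), ACSL4 (-0.083), CPT1A (0.024), ACADM (-0.060), ACADSB (-0.058), ECHS1 (0.10), ACAA2 (-0.025), ACAA1 (0.069), SCP2 (-0.058), PEX13 (-0.052), PEX16 (0.027) and PEX19 (-0.043). Leaving out single samples gave ranges across 0 for ACSL3 (-0.0067 to 0.074), CPT1A (-0.077 to 0.048), CPT2 (-0.019 to 0.021), ACADM (-0.024 to 0.13), ACAA2 (-0.071 to 0.13), ECI2 (-0.11 to 0.037), PEX11A (-0.17 to 0.047), PEX3 (-0.15 to 0.00995), PEX14 (-0.042 to 0.13), PEX19 (-0.054 to 0.041) and ACOX2 (-0.29 to 0.093). List genes that are not named were not counted here, and some of those called also reversed with the GC trend removed. The cause of the reversals was not tested. How many small changes were missed at this depth is not known from these data.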
